A study of Mus musculus with 2 samples.

Results

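The levels of 10 collagen genes (Col1a1, Col1a2, Col3a1, Col5a1, Col5a2, Col6a1, Col6a2, Col4a1, Col4a2 and Col7a1) were measured by class of cells in mouse tumors. They were chosen by symbol from 55450 annotated genes, 44 of which are collagen chains, so that 34 other collagen genes were not chosen. EMT6 cells, a mouse mammary carcinoma line used as a model of triple-negative breast cancer, were injected under the skin of female BALB/c mice, 200000 cells each, and the mice were 5 to 6 weeks old when bought. One group, called Olaparib + LLY-283, received LLY-283 (an inhibitor of the arginine methyltransferase PRMT5) at 50 mg/kg on 3 days followed by 4 days without drug, and Olaparib (a PARP inhibitor) at 50 mg/kg every day. The other group, called Combo, received both drugs and anti-PD-1, an antibody against the T cell checkpoint receptor, at 200 µg every 3 days. Tumors of 3 mice were pooled into a single 3′ single-cell RNA-seq library per group, and no untreated library was used here. The treatment, the pool of mice and the library therefore cannot be told apart, no test between groups was possible, and the intervals given are 95% intervals that cover counting error only.

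Collagens are built from 3 chains wound into a triple helix. Types I, III and V form the striated fibrils of connective tissue, type VI forms beaded filaments close to cells, type IV forms the network of basement membranes, and type VII forms the fibrils that anchor an epithelium to the tissue under it. In tumors, fibroblasts are known as the main makers of fibrillar collagen and endothelial cells as makers of vessel basement membrane.

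On the GRCm38/mm10 build with GENCODE M21, the fibrillar genes lay at chr11:94936224-94953042 (Col1a1, plus strand), chr6:4504814-4541544 (Col1a2, plus strand), chr1:45311538-45349706 (Col3a1, plus strand), chr2:27886425-28039514 (Col5a1, plus strand) and chr1:45374321-45503282 (Col5a2, minus strand). Col3a1 and Col5a2 were neighbors on opposite strands with 24614 bases between them. Col6a1 (chr10:76708792-76726168) and Col6a2 (chr10:76595762-76623630) were both on the minus strand, 85161 bases apart. Col4a1 (chr8:11198423-11312826, minus strand) and Col4a2 (chr8:11312805-11449287, plus strand) were arranged head to head and overlapped by 22 bases at their starts. Col7a1 lay at chr9:108953586-108984875 on the plus strand. Of the 10 genes, 8 had an entry in the RefSeq promoter table of GRCm38.p6. The 250 bases before the start are shown for Col3a1 and Col7a1. Of the 10 genes, Col3a1 had the highest level in the cells named as fibroblasts here. Col7a1 was the only one with a lower level in those cells than in the cells named as tumor cells. The Col7a1 order did not hold for every way of drawing these classes. Both sequences are given 5′ to 3′ on the plus strand from the reference genome, not from BALB/c or EMT6 DNA.
Col3a1, chr1:45311288-45311537: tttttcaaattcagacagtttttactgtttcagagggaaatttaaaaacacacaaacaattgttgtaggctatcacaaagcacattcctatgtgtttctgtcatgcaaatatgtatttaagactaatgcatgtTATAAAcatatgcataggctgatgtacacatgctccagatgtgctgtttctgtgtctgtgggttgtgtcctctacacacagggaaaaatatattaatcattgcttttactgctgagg
Col7a1, chr9:108953336-108953585: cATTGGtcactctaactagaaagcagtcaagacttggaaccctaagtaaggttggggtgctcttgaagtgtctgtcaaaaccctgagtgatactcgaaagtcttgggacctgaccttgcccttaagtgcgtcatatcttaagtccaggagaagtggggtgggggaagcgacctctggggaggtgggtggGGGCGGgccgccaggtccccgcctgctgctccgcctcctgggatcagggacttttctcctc
Capitals mark matches, on either strand, to 3 motifs that were searched in 32851 promoters of the same length. The TATA box was searched as TATAAA. The letters CCAAT stood for the box of that name, which on the minus strand reads ATTGG. The GC box was searched as GGGCGG. The Col3a1 window held the TATA box once, 117 bases before the start, and 35.2% of its bases were G or C. The Col7a1 window held a CCAAT box on the minus strand 249 bases and a GC box 61 bases before the start, and 56.4% of its bases were G or C. Of all promoters, 12.4% held the TATA box, 33.8% the CCAAT box and 32.7% the GC box.

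The Olaparib + LLY-283 library held 16115 cell barcodes with a median of 7376 unique molecular identifiers (UMIs), and the Combo library 7542 barcodes with a median of 3613.5. After filters on genes, mitochondrial UMIs and doublets, 13665 and 5909 cells were clustered, and 21 of the barcodes kept were in both libraries. The limit on mitochondrial UMIs removed 0.534% of the barcodes in Olaparib + LLY-283 and 21.0% in Combo, and 14.7% and 0.789% of the cells that passed were called doublets. Classes were named from marker genes that held no collagen. The median depth of a class differed between the libraries, with 8734 UMIs in a tumor-like cell of Olaparib + LLY-283 and 49138 in one of Combo. Levels below are therefore UMIs per 1000000 UMIs of the class (CPM). A UMI marks the 3′ end of a transcript and does not scale with its length.

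Tumor-like cells numbered 10585 in Olaparib + LLY-283 and 2667 in Combo, cells like cancer-associated fibroblasts (CAF-like) 152 and 46, and endothelial-like cells 19 and 8. The CAF-like cluster was led by Dpt, Fstl1, Clec3b, Prg4 and Sfrp2, and its 12 CAF markers summed to 13768 and 9909 CPM, against 221 and 288 in tumor-like cells. The endothelial-like cluster was led by Igfbp3, Gpihbp1, Fabp4, Cldn5 and Plvap. Its level of Pecam1, an endothelial adhesion molecule, was 1098 and 1079 CPM, while the pericyte markers Rgs5, Cspg4, Higd1b, Notch3 and Ndufa4l2 were at 0 in it and 3 others were not (Kcnj8 at 305 and 443, Mcam at 458 and 467, Abcc9 at 61.0 and 250 CPM). Tumor-like cells were named from keratins, with Krt8 at 797 and 786 CPM. Epcam, an epithelial adhesion molecule, was at only 3.25 and 3.10 CPM in them. Krt8 was also present at 147 and 303 CPM in CAF-like cells and at 352 and 203 CPM in neutrophil-like cells. A further cluster of 34 and 26 cells, led by Crabp1, Serpine2, Spon1, Cxcl14 and Ndufa4l2, had 11 of the 12 CAF markers more than 2-fold above other cells but was not named, and it is called the unnamed stromal cluster.

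Col1a1 and Col1a2, the chains of type I collagen, and Col3a1, the chain of type III collagen, had their highest levels among named classes in CAF-like cells of both libraries. Col1a1 was at 11844 CPM (11571 to 12123) in the CAF-like cells of Olaparib + LLY-283 and at 10093 CPM (9921 to 10268) in those of Combo. In tumor-like cells it was at 361 CPM (358 to 365) and 407 CPM (404 to 411). The CAF-like level was thus 32.8-fold (32.0 to 33.6) and 24.8-fold (24.3 to 25.3) the tumor-like level, and the intervals of the 2 classes were far apart in both libraries. The chain Col1a2 was at 15296 and 13404 CPM in CAF-like cells and, at 1577 and 1548 CPM, was the collagen with the highest level in tumor-like cells. Its fold between these classes, 9.70 (9.50 to 9.91) and 8.66 (8.53 to 8.80), was smaller than that of Col1a1. Col3a1 had the highest level of the 10 genes in CAF-like cells, 30239 CPM in Olaparib + LLY-283 and 20173 CPM in Combo, against 453 and 438 CPM in tumor-like cells, a fold of 66.7 (65.6 to 67.9) and 46.1 (45.4 to 46.8). In the 6 blood, bone and muscle classes (macrophage-, neutrophil-, DC-, T-, osteoclast- and myogenic-like) Col1a1 was between 40.1 and 213 CPM and Col3a1 between 87.9 and 291 CPM, and no interval in these classes reached the tumor-like level. Single CAF-like cells of Olaparib + LLY-283 carried between 74.9 and 727 Col3a1 UMIs per 10000 UMIs, with a median of 291. In Combo they carried between 53.0 and 496, with a median of 218, so that every CAF-like cell was positive and the range within the class was wide.

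**Figure D1:**
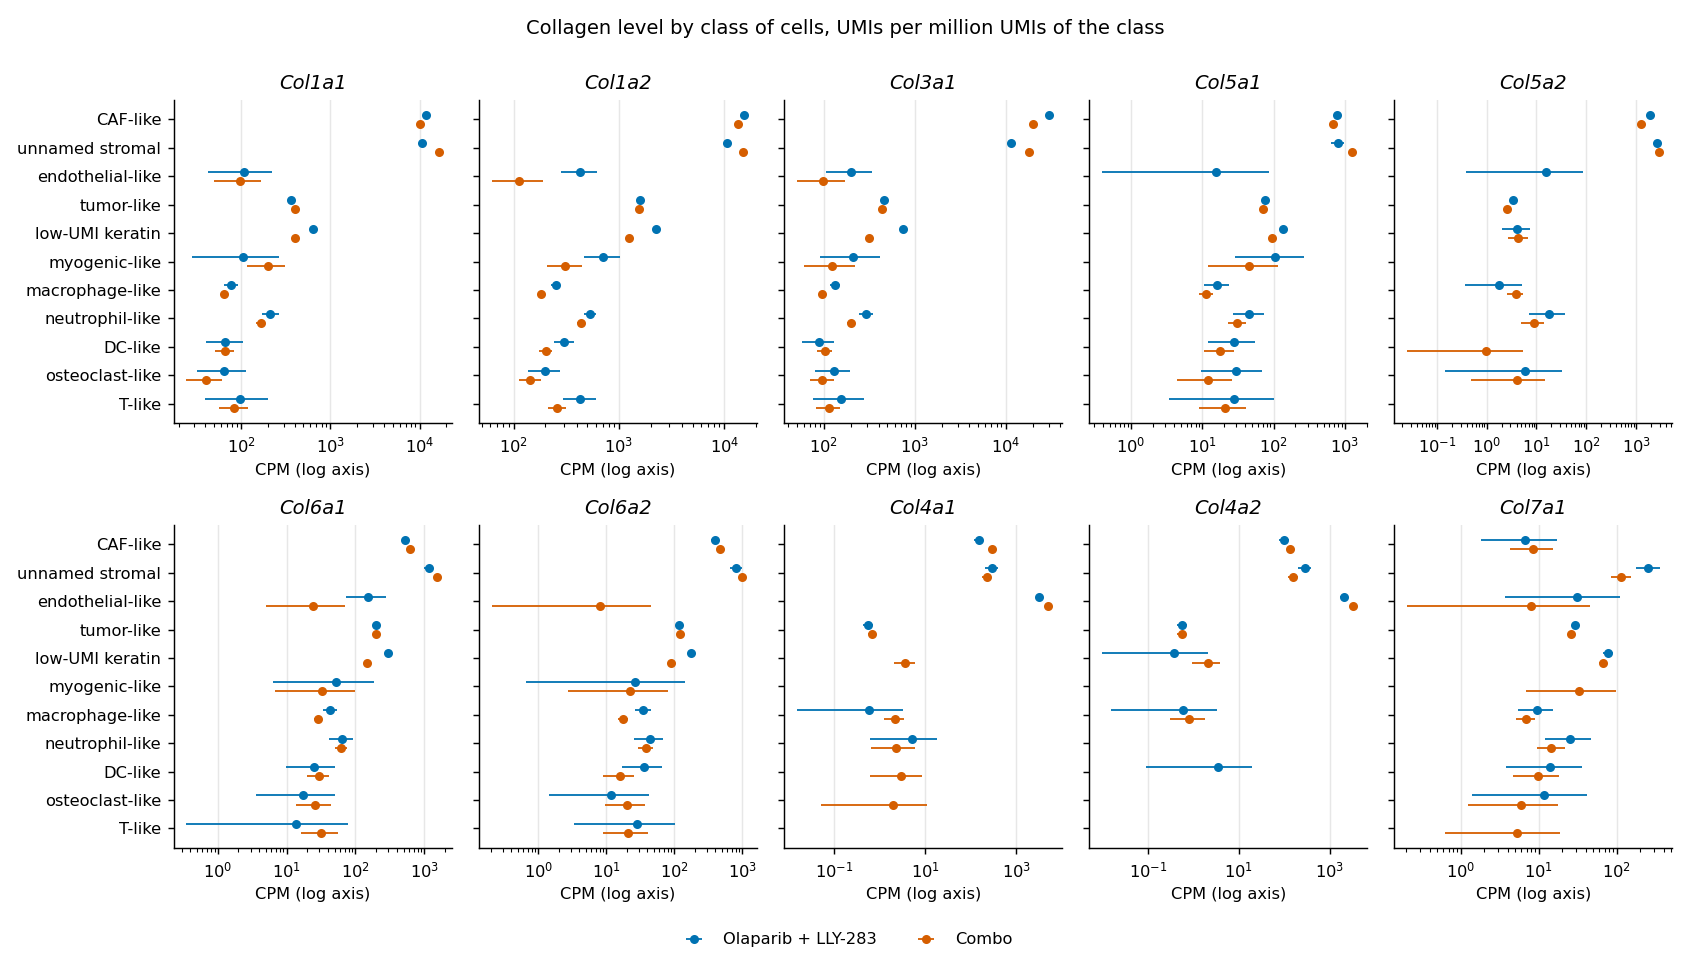
Level of each collagen by class of cells on a logarithmic axis, in UMIs per 1000000 UMIs of the class, for Olaparib + LLY-283 (blue) and Combo (orange). Points are levels from summed UMIs, lines are exact 95% Poisson intervals, a class without a point had no UMI of that gene, and the order of CAF-like above tumor-like holds for every gene but Col7a1.

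Type V collagen, a minor fibrillar collagen that sets fibril width, was split between the classes by chain. Col5a1 was at 775 and 671 CPM in CAF-like cells and at 74.4 and 71.4 CPM in tumor-like cells, a fold of 10.4 (9.46 to 11.4) and 9.40 (8.76 to 10.1). Col5a2 was at 1873 and 1254 CPM in CAF-like cells, from 1124 and 1617 UMIs. In tumor-like cells it was at 3.34 and 2.60 CPM, from 374 and 357 UMIs, so its fold was 561 (499 to 633) and 483 (431 to 543). Of all Col5a2 UMIs in clustered cells, 59.98% and 50.0% lay in CAF-like cells, and 20.0% and 11.04% in the far more numerous tumor-like cells. For Col5a1 the tumor-like share was 89.2% and 81.5%.

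Type VI collagen was the one with the smallest fold in favor of CAF-like cells. Col6a1 was at 530 CPM (473 to 592) and 618 CPM (575 to 662) in CAF-like cells, against 201 CPM (199 to 204) and 196 CPM (194 to 198) in tumor-like cells. The fold was 2.63 (2.35 to 2.94) and 3.15 (2.94 to 3.38). Col6a2, the partner chain, was at 397 and 476 CPM against 119 and 123 CPM, a fold of 3.34 (2.93 to 3.80) and 3.89 (3.58 to 4.21). The third classical chain of the filament, Col6a3, was not among the 10 chosen genes. It was at 665 and 679 CPM in CAF-like cells and at 1.204 and 1.25 CPM in tumor-like cells, so the tumor-like cells held UMIs of Col6a1 and Col6a2 at levels 2 orders of magnitude above those of Col6a3.

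Col4a1 and Col4a2, the chains of the type IV network found in all basement membranes, had their highest levels in the few endothelial-like cells. Col4a1 was at 3249 CPM (2827 to 3716) in the 19 cells of Olaparib + LLY-283 and at 5049 CPM (4662 to 5460) in the 8 cells of Combo. Col4a2 was at 2029 CPM (1699 to 2404) and 3253 CPM (2944 to 3587). Each endothelial-like cell carried Col4a1, between 6.64 and 66.7 UMIs per 10000 in Olaparib + LLY-283 and between 29.9 and 73.6 in Combo. CAF-like cells came next among named classes, with Col4a1 at 150 CPM (121 to 184) and 289 CPM (261 to 320) and Col4a2 at 98.3 and 134 CPM. The endothelial-like level was 21.7-fold (16.9 to 28.0) and 17.4-fold (15.3 to 19.9) the CAF-like level for Col4a1, and 20.6-fold and 24.2-fold for Col4a2. In Combo, 5 of the 46 CAF-like cells held 66.8% of the Col4a1 UMIs of the class. The endothelial markers Cdh5 (the endothelial cadherin), Cldn5 and Tie1 were at 0 in CAF-like cells of both libraries, but others were not. Eng had 13 and 38 UMIs in them, Tek 12 and 18, and Plvap 2 and 15. The 12 endothelial markers summed to 51.7 and 65.9 CPM in CAF-like cells, against 10601 and 12426 CPM in endothelial-like cells. The part of endothelial RNA in the CAF-like Col4a1 level was not tested. Tumor-like cells had Col4a1 at 0.562 and 0.691 CPM and Col4a2 at 0.553 CPM in both, from 62 to 95 UMIs in all their cells. Although they were under 1 in 200 of the clustered cells, endothelial-like cells held 51.7% and 50.5% of the Col4a1 UMIs in clustered cells. Clustered cells held 412 and 1241 Col4a1 UMIs, and cells left out of the clustering a further 291 and 24. The type I, III, V and VI genes were below their CAF-like levels in endothelial-like cells, with at most 28 UMIs each, and Col6a2 in Olaparib + LLY-283 and Col5a1 and Col5a2 in Combo had no UMI there. In Olaparib + LLY-283, Col1a2 was at 427 CPM in them. Col6a1 was at 153 CPM there, 0.758-fold (0.363 to 1.39) the tumor-like level and so within counting error of it.

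Col7a1, the chain of the anchoring fibrils of epithelia, was the only collagen of the 10 with a lower level in CAF-like than in tumor-like cells. It was at 29.4 CPM (28.4 to 30.4) and 25.7 CPM (24.8 to 26.5) in tumor-like cells, from 3294 and 3531 UMIs. In CAF-like cells it was at 6.67 CPM (1.82 to 17.1), from 4 UMIs, and at 8.53 CPM (4.26 to 15.3), from 11 UMIs. The fold of CAF-like over tumor-like cells was 0.227 (0.062 to 0.581) and 0.332 (0.166 to 0.595). This order held for the cells as clustered and not for every way of drawing the classes: it was turned in both libraries, on the log2 scale to between 0.27 and 0.79, when doublets were kept, when cells with under 500 genes were left out, at a coarser clustering, when cells were classed by marker UMIs alone, and when the unnamed stromal cluster was counted as CAF-like. That cluster had the highest Col7a1 level of all, 253 CPM (174 to 355) from 33 UMIs in Olaparib + LLY-283 and 114 CPM (83.4 to 151) from 47 UMIs in Combo. Keratin-positive cells of low depth, 1058 and 766 cells set apart from the tumor-like class, had Col7a1 at 77.1 and 66.9 CPM, 2.62-fold and 2.60-fold the tumor-like level.

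Set against the genes measured, 9 of the 10 collagens were at least 2-fold higher in CAF-like than in tumor-like cells in both libraries, where 10.1% of 12113 genes were, and Col7a1 was at least 2-fold lower, where 6.62% were. Among named classes of at least 20 cells, 9 of the 10 genes were highest in CAF-like cells in Olaparib + LLY-283 and 9 in Combo, where 17.3% and 16.5% of genes were. Col7a1 was highest in tumor-like cells in Olaparib + LLY-283, where 15.1% of genes were. In Combo it was highest in myogenic-like cells, through 3 UMIs, so 0 genes were highest in tumor-like cells, where 17.5% of genes were. With classes of at least 5 cells let in, a limit chosen after the data were seen, 3 collagens in Olaparib + LLY-283 (Col4a1, Col4a2 and, through 2 UMIs, Col7a1) and 2 in Combo (Col4a1 and Col4a2) were highest in endothelial-like cells, where 18.2% and 18.5% of genes were, 7 in each library were highest in CAF-like cells, where 13.4% and 12.4% were, and 0 were highest in tumor-like cells in either library, where 12.1% and 14.6% were.

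Because tumor-like cells were so numerous, they held most of the UMIs of several collagens in spite of their lower level. Their share of the UMIs in clustered cells was 79.3% in Olaparib + LLY-283 and 70.1% in Combo for Col1a1, 90.9% and 85.3% for Col1a2, 69.6% and 61.4% for Col3a1, and 94.1% and 89.8% for Col6a1. CAF-like cells held 13.9% and 16.3% of Col1a1 and 24.9% and 26.5% of Col3a1, but 1.33% and 2.65% of Col6a1. These shares depend on how many cells of each class were kept, and their relation to the makeup of the tumors was not tested.

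RNA set free during dissociation gives collagen UMIs in cells that do not make collagen. Neutrophil-like cells (570 and 866 cells, with median depths of 638 and 1967 UMIs) were taken as the measure of that background. They carried Col1a2 at 532 and 434 CPM, Col3a1 at 291 and 199 CPM, Col1a1 at 213 and 166 CPM, Col6a1 at 63.3 and 62.3 CPM and Col7a1 at 25.3 and 14.6 CPM. Col4a1 was down to 2 and 4 UMIs in them, and no Col4a2 UMI was found in either library. By CPM, therefore, the Col1a1 and Col3a1 levels of tumor-like cells were less than 3-fold above those of neutrophil-like cells, and the Col7a1 level of tumor-like cells in Olaparib + LLY-283 lay within the neutrophil-like interval (12.1 to 46.6).

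Counted per cell, with free RNA taken to add a like number of UMIs to every droplet, tumor-like cells stood farther apart. They carried 3.82 and 21.0 Col1a1 UMIs per cell, 25.9 and 63.8 times the neutrophil-like number, and 16.7 and 79.8 Col1a2 UMIs, 45.3 and 92.8 times. For Col7a1 the multiples were 17.7 and 45.9. CAF-like cells carried 119 and 565 Col3a1 UMIs per cell, 592 and 1431 times the neutrophil-like number, and their Col7a1 count was 1.5 and 8.28 times. At least 2-fold with intervals apart, CAF-like cells exceeded the neutrophil-like number for 9 and 10 of the collagens, where 88% and 91.3% of genes did. Tumor-like cells did so for 8 (all but Col4a1 and Col4a2) and 10, where 96.2% and 96.5% of genes did, and endothelial-like cells for 5 and 5, where 72% and 73.6% did. The shares cover genes with at least 100 UMIs in the 2 classes together, while all 10 collagens were counted. Some collagens were under that floor, such as Col5a2 with 1 UMI in endothelial-like and 7 in neutrophil-like cells of Olaparib + LLY-283. The endothelial-like counts and shares are thus not alike, and nothing is read from their difference. The counts for CAF-like and tumor-like cells are near the shares for all genes, so nothing about collagens is read from them. Neutrophil-like cells held few UMIs of any kind.

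**Figure D2:**
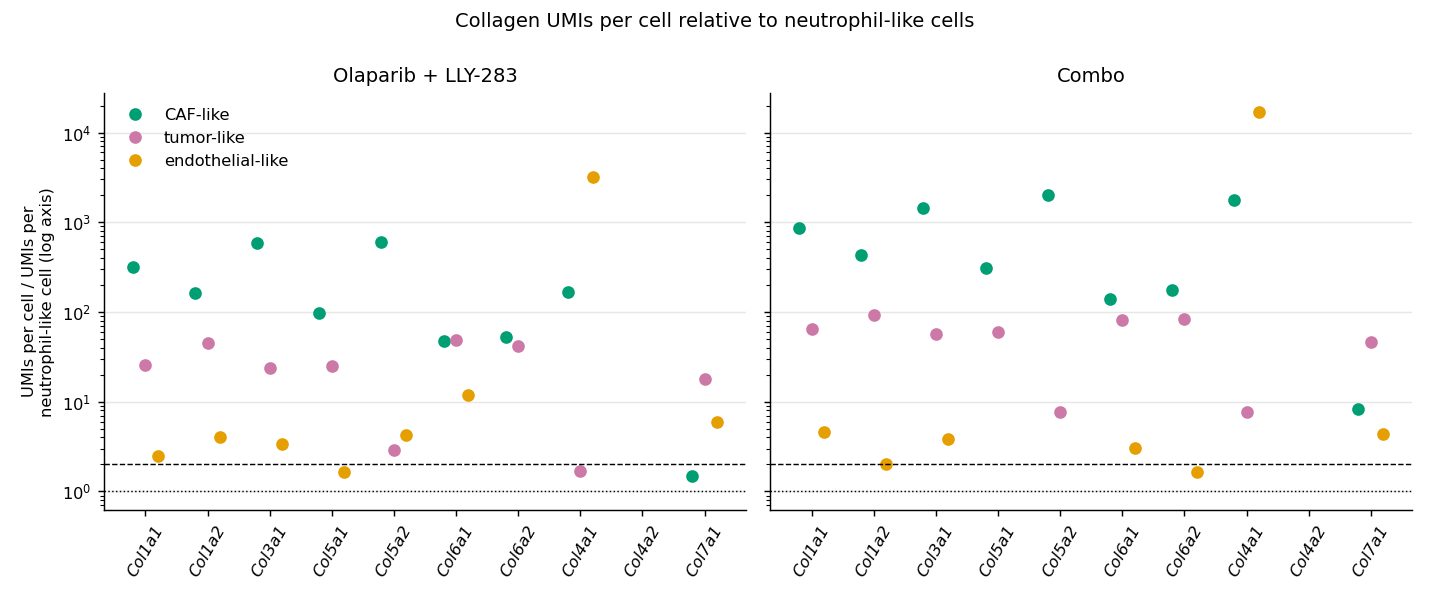
Collagen UMIs per cell in CAF-like, tumor-like and endothelial-like cells divided by those per neutrophil-like cell of the same library, on a logarithmic axis. The dotted line marks the neutrophil-like number and the dashed line 2 times it, Col4a2 has no point because neutrophil-like cells held none of its UMIs, classes with no UMI of a gene are not drawn, and CAF-like points lie above tumor-like points except for Col6a1 in Olaparib + LLY-283 and for Col7a1.

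Col1a1, Col1a2, Col3a1 and Col6a1 were also counted per UMI of Col5a2, the gene with the highest fold of CAF-like over tumor-like cells in both libraries. That choice fixes that the ratio is higher in tumor-like than in CAF-like cells. It also sets that a mixture of RNA from these classes falls between them. The ratios are therefore a description, and nothing about the source of free RNA is read from them. CAF-like cells held 6.32 (5.94 to 6.74) Col1a1 UMIs per Col5a2 UMI in Olaparib + LLY-283 and 8.05 (7.64 to 8.48) in Combo. Tumor-like cells held 108 (97.8 to 120) and 157 (141 to 175), and neutrophil-like cells 12 (5.58 to 30.8) and 19 (11.3 to 34.4). The neutrophil-like ratios, which rest on 7 and 15 Col5a2 UMIs, lay between the others, with intervals apart from the tumor-like ones. For Col6a1 the ratio was 0.283 and 0.492 in CAF-like cells and 60.3 and 75.4 in tumor-like cells.

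The chains of 1 protein were not in the same ratio in each class either. Type I collagen is mostly made of 2 Col1a1 chains and 1 Col1a2 chain. CAF-like cells held 1.29 (1.25 to 1.33) and 1.33 (1.298 to 1.359) Col1a2 UMIs per Col1a1 UMI, and the unnamed stromal cluster 0.99 and 0.92. Tumor-like cells held 4.37 (4.32 to 4.41) and 3.80 (3.76 to 3.83), with no overlap between the classes in either library. Col3a1 per Col1a1, a ratio between chains of different proteins, was 2.55 and 2.00 in CAF-like cells and 1.25 and 1.07 in tumor-like cells. Col5a2 per Col5a1 differed most, 2.42 and 1.87 in CAF-like cells against 0.045 and 0.036 in tumor-like cells. Col6a2 per Col6a1 differed least, 0.75 and 0.77 against 0.59 and 0.63. In endothelial-like cells, Col4a2 per Col4a1 was 0.62 (0.50 to 0.78) and 0.64 (0.57 to 0.73), so the ratio of the head-to-head pair differed between the libraries by less than its counting error, while the level of each chain differed by more than that error.

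**Figure D3:**
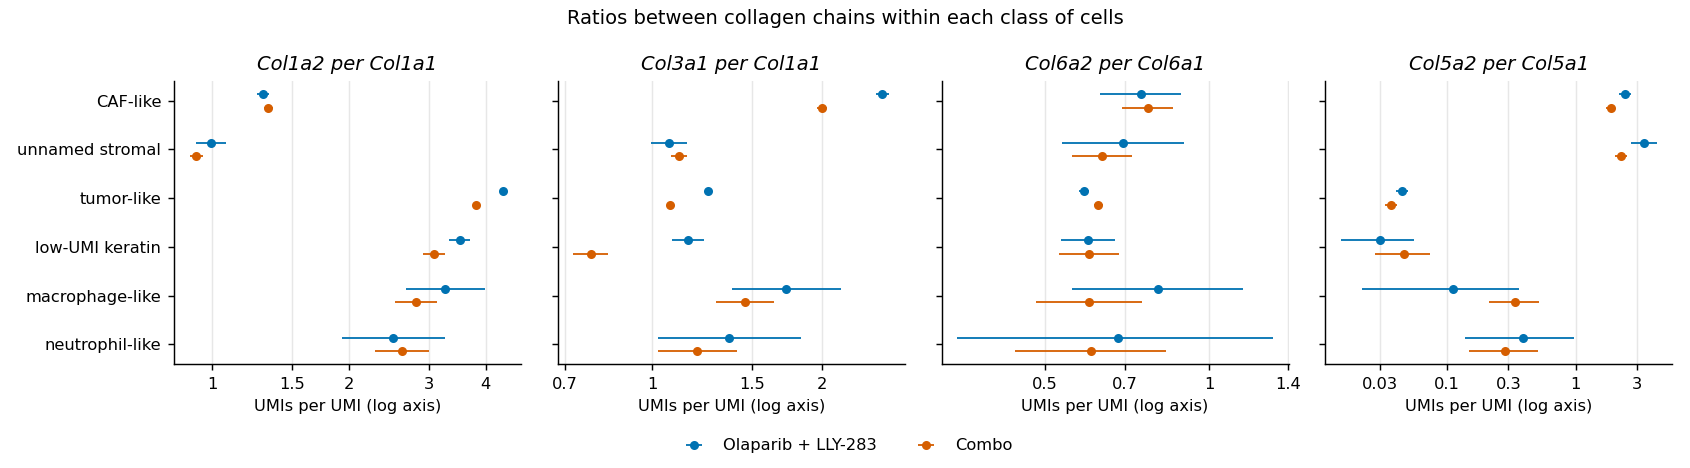
UMIs of one chain per UMI of another within each class, on logarithmic axes that differ between panels, for Olaparib + LLY-283 (blue) and Combo (orange). Lines are exact 95% intervals of the ratio, and the tumor-like points lie to the right of the CAF-like points for Col1a2 per Col1a1 and to the left for the other 3 ratios.

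In single cells, Col1a2 was found in 98.2% of tumor-like cells of Olaparib + LLY-283 and 99.6% of those of Combo, against 27.7% and 54.2% of neutrophil-like cells, at the median depths given above. With each cell thinned to 1000 UMIs, which left out the shallower cells, the shares were 71.9% and 72.3% in tumor-like cells and 17.4% and 32.5% in neutrophil-like cells, of which 28 and 749 were deep enough. Col1a1 was found in 83.6% and 96.9% of tumor-like cells, and in 29.9% and 32.1% after thinning, against 9.60% and 14.1% of thinned neutrophil-like cells. Thinning brought the shares of the libraries together: for Col6a1 they went from 73.0% and 94.7% to 18.8% and 18.01%, and for Col7a1 from 23.9% and 62.5% to 3.00% and 2.95%. After thinning, Col7a1 was found in 3.46% and 1.31% of neutrophil-like cells. In Olaparib + LLY-283 its share in tumor-like cells was thus by value no higher than that background, which rests on only 28 cells there. Col5a2 stayed in 81.3% and 70.4% of CAF-like cells and in 0.335% and 0.277% of tumor-like cells. Tumor-like cells that carried no UMI of any of the 12 CAF markers still held type I, III and VI collagen UMIs. In Olaparib + LLY-283 there were 3139 such cells with a median depth of 6654 UMIs, with Col1a1 at 293 CPM (287 to 300), Col1a2 at 1333 CPM, Col3a1 at 326 CPM and Col6a1 at 156 CPM. In Combo there were 102, with a median depth of 8899 UMIs against 49138 in all tumor-like cells. They had Col1a1 at 247 CPM, Col1a2 at 1006 CPM, Col3a1 at 168 CPM (151 to 187) and Col6a1 at 93.3 CPM. In both libraries each of these levels was lower than in all tumor-like cells. Their Col3a1 level lay within the neutrophil-like interval in Olaparib + LLY-283 (241 to 350) and below the neutrophil-like level in Combo, 199 CPM (179 to 221). The other levels were above the neutrophil-like ones.

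The tumor-like class was made of 12 clusters in Olaparib + LLY-283 and 11 in Combo with enough cells to compare, and 7 of the 10 collagens were above 15 CPM in each. The collagens were left out of the genes used for clustering, but the clusters come from the same cells, so the values are a description. In both libraries Col1a1, Col1a2, Col3a1, Col5a1, Col6a1, Col6a2 and Col7a1 were highest in the cluster led by Aspn, Mgp, Dcn and Omd (975 and 166 cells), with Col3a1 at 1146 and 1477 CPM, Col1a1 at 631 and 754 CPM and Col6a1 at 429 and 571 CPM. For Col7a1 the lead was within counting error. It was at 39.8 CPM (35.4 to 44.6) against 39.7 CPM (35.8 to 44.0) in the next cluster of Olaparib + LLY-283. In Combo it was at 28.5 CPM (24.2 to 33.4) against 27.7 CPM (20.4 to 36.7). The cluster led by Aspn also had a higher sum of the 12 CAF markers, 843 and 1723 CPM, of which Dcn, a small proteoglycan that binds collagen fibrils, gave 519 and 1306 CPM. Of the 12 CAF markers, 8 were at least 2-fold higher in this cluster than in all tumor-like cells of both libraries (Pdgfra, Pdgfrb, Dcn, Lum, Fap, Fgf7, Clec3b and Serpinf1) and 4 were not (Thy1, Dpt, Mfap5 and Fbln1). The receptor Pdgfrb was at 134 and 172 CPM in it against 53.7 and 43.9 CPM, and Thy1 at 0.269 and 0.559 CPM against 0.633 and 0.691 CPM. In CAF-like cells Thy1 was at 410 and 403 CPM, but Pdgfrb was at 20.0 and 32.6 CPM, lower than in tumor-like cells. The share of all genes that were highest or raised in the cluster led by Aspn was not counted. The part of CAF RNA in its levels was not tested. The cluster led by Pgf, Adm, Dusp4 and F3, genes known to respond to low oxygen or stress, had the lowest type I and III levels, with Col1a1 at 154 and 216 CPM, Col1a2 at 660 and 828 CPM and Col3a1 at 175 and 208 CPM. Between the highest and lowest cluster Col3a1 spanned a fold of 6.55 and 7.10, Col1a1 of 4.10 and 3.49, and Col7a1 of only 1.82 and 1.56.

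**Figure D4:**
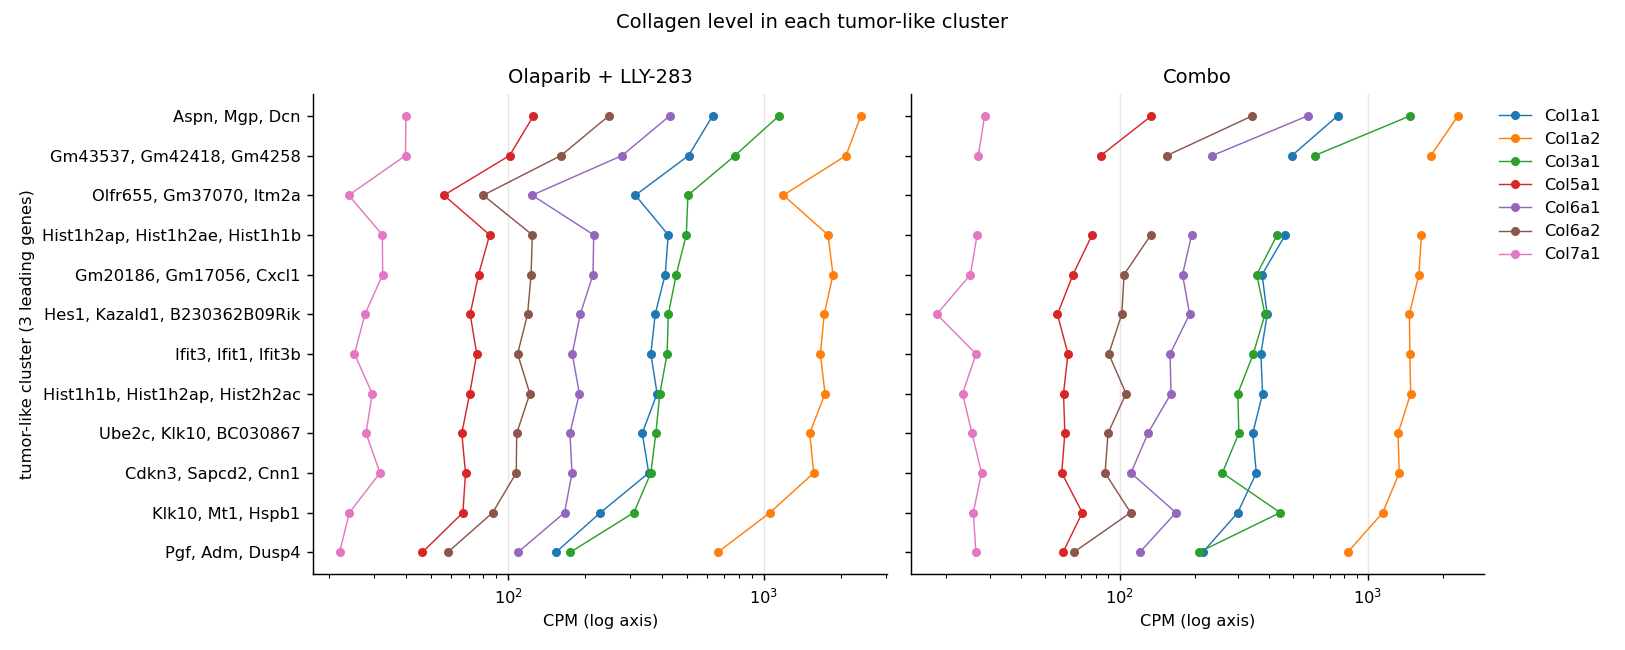
Level of 7 collagens in each tumor-like cluster, in UMIs per 1000000 UMIs of the cluster on a logarithmic axis, with clusters named by their 3 leading genes. Lines join the values of 1 gene to guide the eye and have no order in time, a cluster without points had too few cells in that library, and the cluster led by Aspn, Mgp and Dcn lies at the right end for each gene in both libraries. For Col7a1 its lead over the next cluster is within counting error.

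The unnamed stromal cluster also carried the fibrillar collagens, at levels that differed from those of CAF-like cells by gene and library. Col3a1 was 0.380 (0.361 to 0.401) of the CAF-like level in Olaparib + LLY-283 and 0.905 (0.882 to 0.929) of it in Combo. Col1a1 was at 10737 and 16391 CPM in it, Col1a2 at 10660 and 15113 CPM, and Col3a1 at 11503 and 18261 CPM, so it was above the CAF-like level of Col1a1 in Combo and below it in Olaparib + LLY-283. Col5a2 (2682 and 2818 CPM), Col6a1 (1157 and 1542 CPM) and Col6a2 (805 and 981 CPM) were above the CAF-like levels in both libraries. Col7a1 was 37.9-fold (13.5 to 147) and 13.3-fold (6.80 to 28.5) the CAF-like level, the widest gap between these clusters among the 10 genes. Krt8 was at 444 and 72.5 CPM in the unnamed cells, and its part in these values was not tested.

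Between the libraries, no collagen differed by 2-fold or more in CAF-like or tumor-like cells as clustered. In CAF-like cells 0 of 10 were at least 2-fold higher in Combo, where 2.14% of 2991 genes were, and 0 were at least 2-fold lower, where 0.502% were. In tumor-like cells 0 of 10 were higher, where 1.64% of 13671 genes were, and 0 were lower, where 0.366% were. In tumor-like cells the log2 ratio of Combo over Olaparib + LLY-283 was 0.17 (0.16 to 0.19) for Col1a1, −0.03 for Col1a2, −0.05 for Col3a1 and −0.04 for Col6a1, beside a median over all genes of 0.08. In CAF-like cells Col3a1 was lower in Combo, with a log2 ratio of −0.58 (−0.61 to −0.56), as were Col5a2 (−0.58, −0.69 to −0.47), Col1a1 (−0.23, −0.27 to −0.19) and Col1a2 (−0.19, −0.23 to −0.15), beside a median over all genes of 0.05. In the unnamed stromal cluster the same genes were not lower in Combo. Its log2 ratios were 0.67 (0.59 to 0.75) for Col3a1, 0.61 (0.53 to 0.69) for Col1a1, 0.50 (0.42 to 0.59) for Col1a2 and 0.07 (−0.10 to 0.25) for Col5a2. The direction of all 4 CAF-like ratios turned in 2 of the 16 alternatives, and that of Col1a1 and Col1a2 also turned, to 0.09, when doublets were set by their expected share. With doublets kept, which raised the number of CAF-like cells to 380 in Olaparib + LLY-283 and 78 in Combo, the Col3a1 ratio was 1.03, the Col1a1 ratio 1.37 and the median over the 10 collagens 1.23. With cells classed by marker UMIs alone, Col3a1 was at 0.87, Col1a1 at 1.34 and that median at 1.11, against 0.02 for the clustered cells. The absence of a 2-fold difference thus depends on whether doublets were kept and on how cells were classed. In Olaparib + LLY-283, cells with at least 7 CAF markers that were called doublets had a median Krt8 of 445 CPM (111 cells) and those not called a median of 0 (138 cells). Their median depths also differed, with 13063 UMIs in the cells called and 3942.5 in those not called. The 61 such cells of Combo that were not called had a median of 79.7 CPM and a median depth of 23414 UMIs.

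Type IV collagen was higher in Combo in CAF-like and endothelial-like cells, but not in the unnamed stromal cluster. The log2 ratio of Col4a1 was 0.95 (0.61 to 1.297) in CAF-like cells and 0.64 (0.41 to 0.87) in endothelial-like cells. That of Col4a2 was 0.45 (0.015 to 0.90) in CAF-like cells, with a lower bound close to 0, and 0.68 (0.40 to 0.98) in endothelial-like cells. In the unnamed stromal cluster the ratio was −0.37 (−0.93 to 0.21) for Col4a1 and −0.83 (−1.43 to −0.21) for Col4a2. These ratios rested on few cells. They were also taken without the 5 cells that held the most UMIs of the gene in each class and library. That left out 5 of 152 and of 46 CAF-like cells and 5 of 19 and of 8 endothelial-like cells, a larger part in Combo. Col4a1 was then at 114 CPM in the CAF-like cells of Olaparib + LLY-283 and at 113 CPM in those of Combo, a log2 ratio of −0.01. The Col4a2 ratio in CAF-like cells was −0.33, and the endothelial-like ratios were 0.35 for Col4a1 and 0.13 for Col4a2. Of 264 genes measured in endothelial-like cells, 2.27% were at least 2-fold higher in Combo and 1.89% at least 2-fold lower, and neither type IV gene was among the first.

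**Figure D5:**
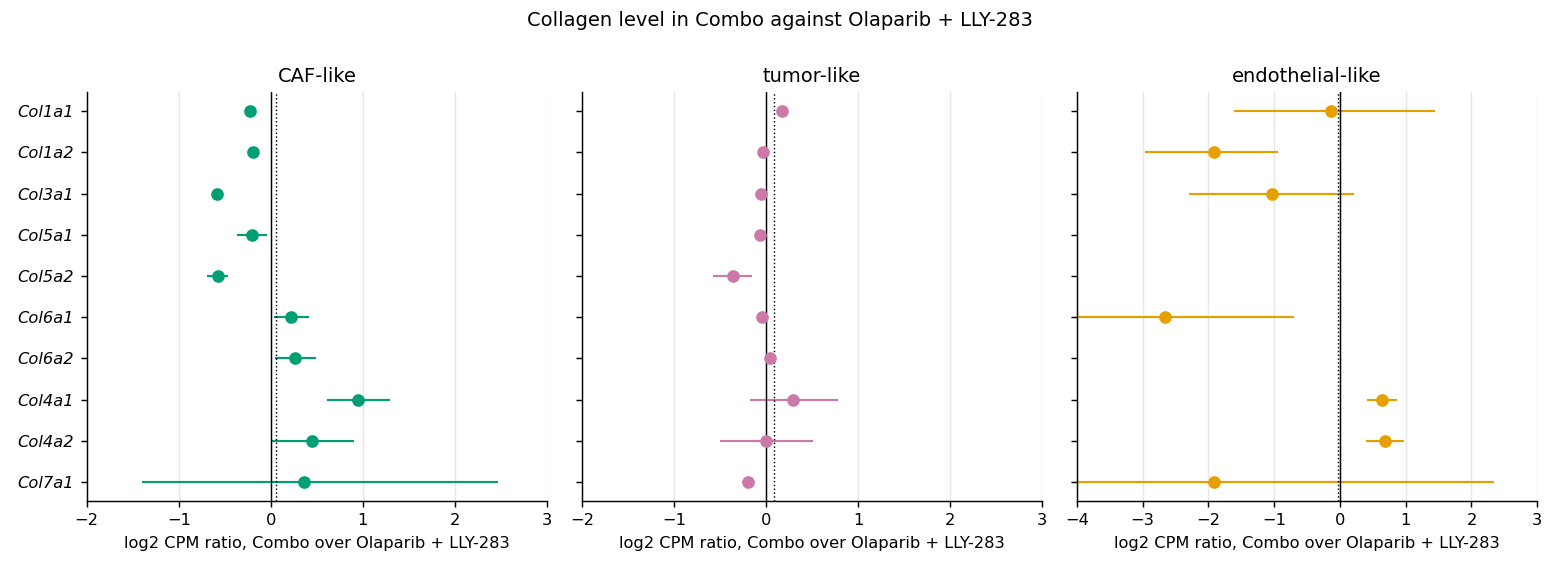
Log2 ratio of the CPM in Combo over that in Olaparib + LLY-283 for each collagen in CAF-like, tumor-like and endothelial-like cells, with exact 95% intervals for counting error, a dotted line at the median of all genes, and an axis that is wider for endothelial-like cells. With 1 library a group the points compare these libraries, and in CAF-like and tumor-like cells they lie between −0.58 and 0.95.

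Genes that work with collagen were compared between the same classes, where 10.1% of all genes measured were at least 2-fold higher in CAF-like cells in both libraries. Of 27 measured genes of procollagen processing and cross-linking, 19 were at least 2-fold higher in CAF-like than in tumor-like cells in both libraries, 1 was lower (P3h2, a prolyl hydroxylase that acts on basement membrane collagen) and 7 were neither, with a median log2 ratio of 1.97 and 1.24 beside −0.00 and −0.04 over all genes. P3h2 had only 0 and 1 UMIs in CAF-like cells, too few for its order to be settled. Lox, which cross-links fibrillar collagen, was at 982 and 718 CPM in CAF-like cells against 43.2 and 39.6 CPM. Adamts2, which removes the amino-terminal propeptide, was at 348 and 234 CPM against 4.26 and 3.10 CPM. Serpinh1, the collagen chaperone of the endoplasmic reticulum, was less unequal, at 2185 and 2008 CPM against 466 and 554 CPM in tumor-like cells. Of 12 basement membrane partners 9 were at least 2-fold higher in CAF-like cells, among them Nid1, which links laminin to type IV collagen, at 913 and 595 CPM against 0.812 and 0.705 CPM. Of 11 partners of the fibrillar matrix 9 were higher, with Fn1, fibronectin, at 7496 and 4763 CPM against 868 and 807 CPM. Of 8 collagen receptors 3 (Itga11, Ddr2 and Mrc2) were higher in CAF-like cells and 5 were neither, while the receptor subunits Itga1 (107 and 129 CPM) and Itga2 (122 and 72.5 CPM) had their highest levels of the 3 classes in endothelial-like cells.

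Over 18 points (9 classes in each library, which share depth and free RNA within a library), the genes with a log level most like that of Col1a1 among 10210 candidates were Adamts2 (Pearson's r = 0.968), Dcn (0.967), Ccn3 (0.964), Cyp1b1 (0.962) and Prelp (0.954). For Col4a1 they were Timp3 (0.961), Inhbb (0.948), Lama4 (0.944), Nid1 (0.932) and Akap12 (0.931). For Col7a1 they were led by Klf5 (0.919), an epithelial transcription factor, and Wdr60 (0.904). These are descriptions of level by class, with no test.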

How the data were processed

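The authors deposited filtered matrices of UMI counts per gene and cell, 1 per library, made with Cell Ranger 6.1.2 per the file headers. Bcl2fastq and Seurat are also named in the submitters' processing notes. The deposited counts were not normalized, and all 55450 gene identifiers matched GENCODE M21 (GRCm38). Barcodes with fewer than 200 genes or with 20% or more mitochondrial UMIs were dropped. Doublets were found with Scrublet on log-transformed counts, and cells of both libraries were clustered together by the Leiden method (scanpy 1.11.5, leidenalg 0.10.2, igraph 0.11.9) on 30 principal components of 2000 variable genes without collagens, with 20 neighbors and a resolution of 1.3. UMIs were summed per class and library. Intervals were exact Poisson for CPM, conditional binomial for ratios and Clopper-Pearson for shares, at 95%, and the code was tested on simulated data (scipy 1.17.1, numpy 2.4.6 and pandas 2.3.3 under Python 3.11.15, with plots by matplotlib 3.10.9). A class needed at least 20 cells for counts of highest levels. Shares of all genes were counted among genes with at least 100 UMIs in the cells compared, and genes of the partner lists needed at least 20. The named genes were the 10 collagens, other collagens at 50 CPM or more in a named class of both libraries, leading genes of clusters, examples from 4 lists of collagen partners, and the 5 genes most alike in level. The members and lists were chosen with earlier results of these data known. The libraries hold 147214934 and 162522700 UMIs, and 39 barcodes were in both before filters.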

Additional observations from a re-analysis of the deposited data

Results flagged for a closer look

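For 2 collagens the ratio of Combo over Olaparib + LLY-283 lay on opposite sides of 0 in CAF-like and tumor-like cells with both counting intervals clear of 0. For Col4a2 and Col7a1 the ratios also had opposite signs, but an interval held 0. For Col1a1 the log2 ratio was −0.23 in CAF-like and 0.17 in tumor-like cells, a difference of −0.40. For Col6a1 it was 0.22 in CAF-like and −0.04 in tumor-like cells, a difference of 0.26. With 1 library a group, the difference was not tested. Krt8 in CAF-like cells was at 147 CPM in Olaparib + LLY-283 and 303 CPM in Combo, and its part in these values was not tested.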

How the results depend on the processing

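No paired analysis was possible because each group had 1 library and no result comes from a test. Across the alternatives, the ratio of CAF-like over tumor-like cells kept its sign for 9 collagens in both libraries. Col7a1 kept it in 9 of 14 alternatives in Olaparib + LLY-283 and in 10 of 15 in Combo. Its log2 ratio was turned to 0.39 and 0.54 with doublets kept, to 0.78 and 0.45 with at least 500 genes a cell, to 0.78 and 0.41 at resolution 0.8, to 0.61 and 0.27 with marker UMIs in place of clusters, and to 0.79 and 0.41 with the unnamed stromal cluster counted as CAF-like, an alternative added after the data were seen.

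The count of collagens highest in tumor-like cells of Olaparib + LLY-283 went from 1 to 0 with doublets kept, with no mitochondrial limit, with at least 500 genes, at resolution 0.8 and 2, with 50 components, with marker UMIs, and, chosen after the data were seen, with classes of at least 5 cells and with the stromal cluster counted as CAF-like. In Combo it went from 0 to 1 with a mitochondrial limit of 10% and with the mean of per-cell CPM. It also did so without the 5 cells of each class that held the most UMIs of each gene, called the 5 richest cells below. The number highest in endothelial-like cells, 0 under the limit of 20 cells, became 2 in Olaparib + LLY-283 with doublets kept, no mitochondrial limit, resolution 2, 20 or 50 components, collagens among the variable genes, and doublets by expected share (added after the data were seen). With at least 5 cells it was 3 and 2. The number above free RNA in endothelial-like cells, 5 and 5, became 3 and 2 with marker UMIs or a limit of 5 times, 2 and 2 without the 5 richest cells, and 2 in Combo against macrophage-like or T-like cells. At least 500 genes or resolution 0.8 left no endothelial-like class and so no value for it.

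The median log2 ratio of Combo over Olaparib + LLY-283 over the 10 collagens, −0.03 in tumor-like cells, was −0.11 with doublets kept, −0.069 with collagens among the variable genes, −0.067 with doublets by expected share, 0.048 with marker UMIs and −0.12 relative to the median of all genes. In CAF-like cells it was 1.23, 1.11 and, without the 5 richest cells, −0.31, against 0.02. In endothelial-like cells it went from −1.04 to 0.13 without the 5 richest cells. That median covers only genes with UMIs in both libraries, which left out Col5a1, Col5a2 and Col6a2 in the main setting. The value of −1.04 was the ratio of Col3a1, from 12 UMIs in Combo and 13 in Olaparib + LLY-283, and 0.13 was that of Col4a2. The genes behind these values can differ, so the turn is not read as a change in level. Shares of cells moved with the depth they were thinned to: the median over the collagens in tumor-like cells was 5.11% and 5.02% at 500 UMIs, 17.7% and 17.5% at 2000, and 52.7% and 87.8% with no thinning, and in CAF-like cells 26.8% and 28.4%, 68.9% and 68.5%, and 83.2% and 93.5%, against 9.78% and 9.60% in tumor-like and 46.1% and 46.7% in CAF-like cells at 1000. Of the values that answer a comparison 202 moved little, 49 moved and 1 was turned. The small number of CAF-like and endothelial-like cells, and 1 library a group, limit every comparison.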

Other observations

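Other collagens also differed by class. Among the 34 collagen genes not chosen, 9 reached 50 CPM in a named class of both libraries. Col14a1, a collagen that decorates fibrils, was at 1155 and 791 CPM in CAF-like cells and Col5a3, a type V chain, at 820 and 695 CPM. Col12a1, another fibril-associated collagen, was at 338 and 385 CPM in CAF-like and 197 and 164 CPM in tumor-like cells, but at 2031 and 2209 CPM in the unnamed stromal cluster. In tumor-like cells Col8a1 was at 120 and 115 CPM (283 and 265 in CAF-like cells) and Col16a1 at 66.9 and 72.2 CPM (117 and 116).

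Endothelial-like cells carried Col18a1, the source of endostatin, at 519 and 548 CPM, against 59.997 and 72.2 CPM in CAF-like and 108 and 122 CPM in tumor-like cells. Col15a1, a basement membrane zone collagen, was at 137 and 209 CPM in them and at 215 and 254 CPM in the unnamed stromal cluster. Col13a1, a transmembrane collagen, was at 183 and 209 CPM in endothelial-like cells, with no UMI in CAF-like cells of either library and 5 and 6 UMIs in all tumor-like cells. Sparc, a matrix glycoprotein that binds collagen, was at 10998 and 11653 CPM in endothelial-like cells. Its level was alike in CAF-like cells, at 13981 and 10695 CPM, and lower in tumor-like cells, at 1039 and 1075 CPM.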
